A study of Mus musculus with 14 samples.

Results

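Transcripts of 9 genes that make, feed and assemble the MHC class I antigen presentation complex were followed in mouse embryonic fibroblasts that carried different forms of the NF-κB subunit p65. The genes were the heavy chains H2-K1 and H2-D1, the light chain B2m, the peptide transporter subunits Tap1 and Tap2, the loading factor Tapbp, and the immunoproteasome subunits Psmb8, Psmb9 and Psmb10. They were found by name: every array probe, controls aside, whose gene name equalled 1 of these 9 symbols was taken, which gave 16 of 41174 probes and 9 of 27962 gene names. Of the 16 probes, 15 were among the 22172 tested, that is, detected above background on all arrays of 1 group or more. The probe left out was the dimmer of the pair for H2-D1, which was not well above background on any array. Where a gene had several tested probes, its brightest probe stands for it and the others are given beside it.

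MHC class I molecules show fragments of the proteins made inside a cell to cytotoxic T cells. The fragments are cut by the proteasome, whose catalytic subunits can be replaced by the inducible subunits Psmb8, Psmb9 and Psmb10 to form the immunoproteasome. Tap1 and Tap2 together carry the peptides across the membrane of the endoplasmic reticulum, and Tapbp, also called tapasin, holds the transporter next to a waiting complex of a heavy chain with B2m. Interferons and NF-κB are textbook inducers of these genes, and fibroblasts, like most nucleated cells, keep some class I on their surface.

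The cells were p65-/- fibroblasts complemented by lentivirus with myc-tagged wild type p65 (wt), with the triple mutant KTR, in which lysines 310, 314 and 315 were replaced by arginine, with the double mutant K314/315R, or with the empty vector pTV. Each line was a blasticidin-selected pool, so a line was 1 infected population and not a set of clones, and the endogenous p65 gene was missing in all groups, wt included. Cells were starved overnight and then given 30 ng/ml TNFα for 3 h. The 5 groups were wt, KTR and pTV at 3 h with 3 arrays each, K314/315R at 3 h with 2 arrays, and wt without TNFα (0 h) with 3 arrays. Neither mutant nor pTV was measured at 0 h. All values are levels on the log2 scale, relative to the 75th percentile of the same array, and levels of different probes are not compared with each other.

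Over the 14 arrays, between 49.9% and 57.7% of spots were well above background, and arrays of the same group correlated with r between 0.984 and 0.995 over the tested probes. Slides 1, 2 and 3 each held 1 array of wt 3 h, KTR, pTV and wt 0 h with the same replicate number, while both K314/315R arrays lay alone on slide 4, so line and slide cannot be told apart for K314/315R. The brighter Rela probe ranged from 0.79 to 1.87 at 3 h in the lines with p65 and from 1.00 to 1.34 in pTV. The dimmer probe ran from -2.26 to -1.51 in those lines and from -2.84 to -2.31 in pTV, without overlap. In wt at 0 h it ran from -2.65 to -2.49. No source used here places the deletion relative to either probe, so this does not check the labels. All 6 fibroblast markers were detected above background throughout in wt, K314/315R, pTV and wt 0 h, and 5 of 6 throughout in KTR. Of 7 leukocyte and macrophage markers, the defining genes Ptprc, Emr1 and Itgam were not well above background on any array, and the summed signal of the 7, in multiples of the 75th percentile, was 0.320 to 0.364 in wt at 3 h and 0.381 to 0.776 in pTV. None of the 3 endothelial markers was well above background on any array. These are bulk RNA samples, in which fewer expressing cells and less RNA per cell cannot be told apart.

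Promoter sequence was at hand for 8 of the 9 genes (RefSeq, GRCm38.p6), and the 250 bases before the start site were searched on both strands for the κB consensus and for GAAANNGAAA, 2 copies of the core of interferon-responsive elements. No match of one overlapped a match of the other. The stretches below are shown because H2-K1, H2-D1 and B2m were the 3 of 8 genes with a κB match, and because Tap1 and Psmb9 are read in opposite directions from nearly the same stretch. Matches are in capitals, the rest in lower case, and each sequence runs 5′ to 3′ on the strand of its gene and ends at the base before the start site.
H2-K1, chr17:34000334-34000583, minus strand: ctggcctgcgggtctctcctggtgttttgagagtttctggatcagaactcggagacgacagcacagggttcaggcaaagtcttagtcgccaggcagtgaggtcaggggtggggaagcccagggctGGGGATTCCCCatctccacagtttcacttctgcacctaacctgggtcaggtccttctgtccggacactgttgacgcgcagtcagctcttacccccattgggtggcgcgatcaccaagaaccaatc
H2-D1, chr17:35262844-35263093, plus strand: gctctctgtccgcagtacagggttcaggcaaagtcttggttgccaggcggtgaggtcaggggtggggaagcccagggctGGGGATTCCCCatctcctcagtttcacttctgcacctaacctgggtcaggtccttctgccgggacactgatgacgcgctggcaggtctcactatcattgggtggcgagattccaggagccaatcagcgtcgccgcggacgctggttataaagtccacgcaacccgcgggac
B2m, chr2:122147437-122147686, plus strand: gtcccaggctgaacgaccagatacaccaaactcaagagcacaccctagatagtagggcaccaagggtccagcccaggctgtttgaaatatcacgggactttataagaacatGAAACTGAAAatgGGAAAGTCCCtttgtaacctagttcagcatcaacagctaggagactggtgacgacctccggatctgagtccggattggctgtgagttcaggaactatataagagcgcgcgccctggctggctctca
Tap1, chr17:34187306-34187555, plus strand: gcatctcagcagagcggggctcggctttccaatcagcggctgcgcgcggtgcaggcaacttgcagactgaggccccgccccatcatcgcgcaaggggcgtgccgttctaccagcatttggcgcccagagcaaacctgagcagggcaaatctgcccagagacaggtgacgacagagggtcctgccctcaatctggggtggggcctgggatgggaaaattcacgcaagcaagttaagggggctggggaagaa
The 11 bases in capitals in H2-K1 hold 2 overlapping κB matches, and the same 11 bases stand in H2-D1 inside a run of 47 identical bases. In B2m the κB match is on the reverse strand and lies next to the only GAAANNGAAA among the 8 genes. Psmb9 starts in the other direction from the Tap1 stretch, and 225 of the 250 bases before its start are the same bases. Of 32851 stretches of this length before all listed start sites, 7.25% held a κB match and 2.98% held GAAANNGAAA. A match is a string of letters, not a measured binding site, and the absence of a match in the other genes says only that these letters are not in these 250 bases.

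With wild type p65, all 9 genes were higher than with the empty vector after 3 h of TNFα, and no array of one group overlapped the other for any of them. In this comparison the call (limma, adjusted p under 0.05 and a fold change over 2) was made for 3.59% of all tested probes in the direction of wt, and all wt arrays stood above all pTV arrays for 16.2% of them. The median log2 fold change of the 9 genes was 2.65, or 2.39 with Tap1 and Psmb8 at the bounds given below, against -0.03 over all tested probes. Of the 15 probes, 14 were called higher. With normexp background correction, described under the processing below, 5 of the 9 genes were called.

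**Figure D1:**
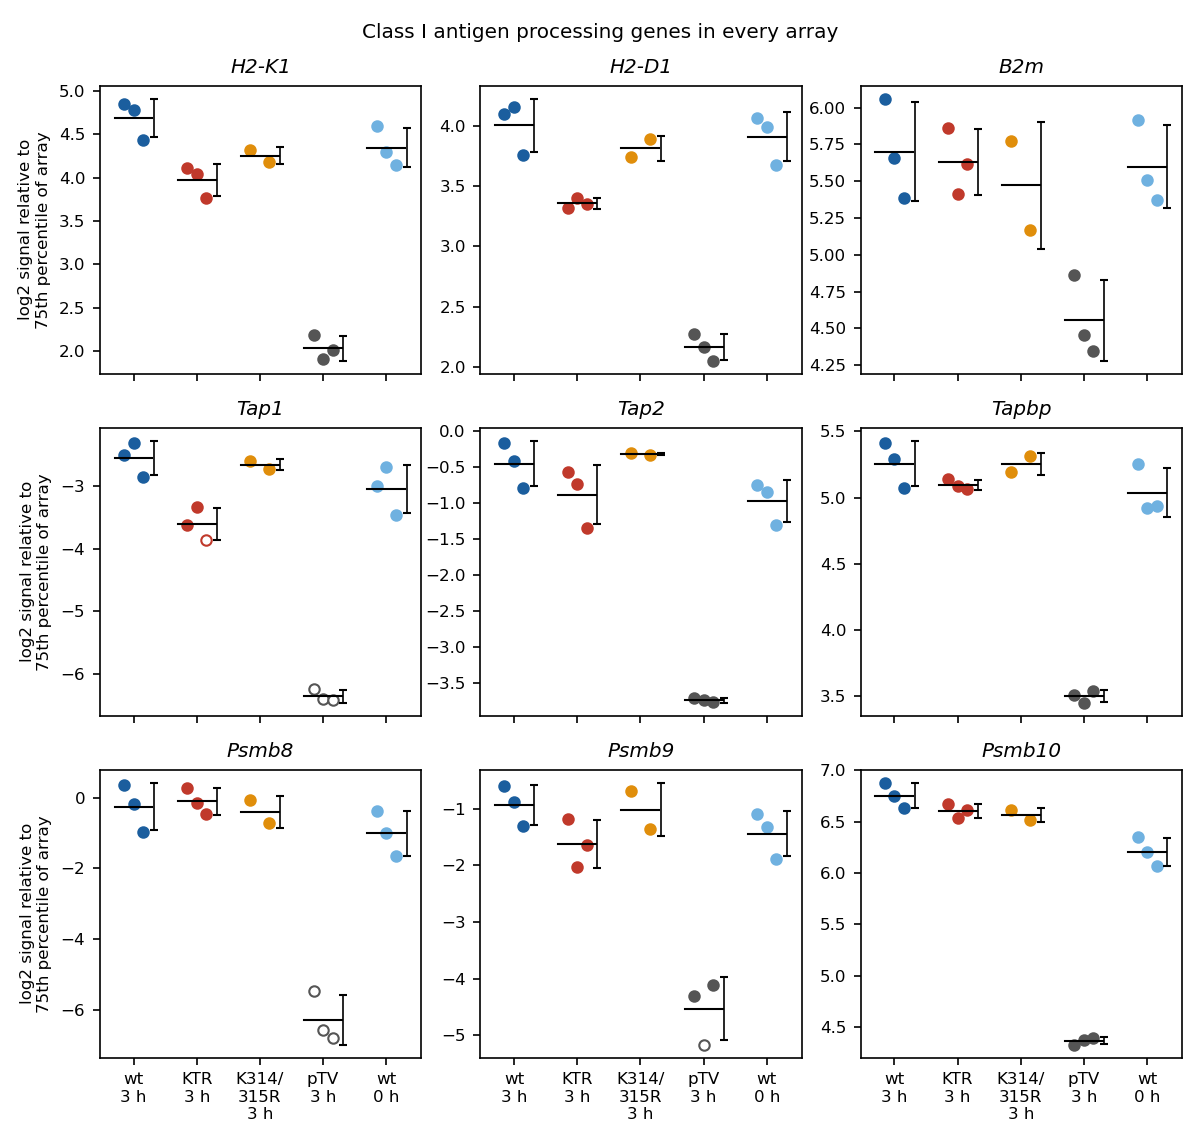
Normalised log2 signal (y axis, relative to the 75th percentile of the array) of the 9 genes in every array of the 5 groups (x axis), 1 panel per gene, each with its own y range. Points are arrays, open where the spot was not well above background, lines are group means and bars are 1 SD. The pTV arrays lie below all other arrays in every panel, with a difference of means against wt at 3 h from 1.15 for B2m to 3.60 for Psmb9 among the genes measured in pTV, while Tap1 and Psmb8 were not well above background there.

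The heavy chain H2-K1 stood at 4.84, 4.78 and 4.43 in wt replicates 1, 2 and 3 and at 2.19, 1.91 and 2.01 in pTV. The wt arrays were thus far above the pTV arrays, and the difference was 2.65 (6.26-fold, adjusted p = 1.93e-07), with 1.90 and 2.73 from the other probes of the gene. H2-D1, the other classical heavy chain, read 4.10, 4.16 and 3.75 in wt and 2.27, 2.17 and 2.05 in pTV, a difference of 1.84 (3.58-fold, adjusted p = 1.22e-06). The heavy chain genes are near-identical to each other and to other class I loci, and the probe sequences were not used here, so a probe may also read its paralogs. B2m, the light chain shared by all class I molecules, changed least: 6.06, 5.66 and 5.39 in wt against 4.86, 4.45 and 4.35 in pTV. Its difference of 1.15 (2.21-fold, adjusted p = 0.00412) was matched by 1.05 from a probe printed in 10 copies, while the dimmest B2m probe gave 0.57 (adjusted p = 0.0409), under the fold limit. Without wt replicate 1 the B2m difference was 0.97 and no longer passed the fold limit.

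Of the genes that supply and load peptide, Tap1 was at -2.51, -2.32 and -2.86 in wt. In pTV it was not well above background on any of the 3 arrays, so only a bound can be given. Tap1 was at least 4.59-fold higher in wt. The adjusted p of 9.13e-08 comes from the limma fit to the dim pTV signals and does not belong to this bound. Tap2, its partner in the transporter, read -0.16, -0.41 and -0.79 in wt and -3.70, -3.74 and -3.77 in pTV. The pTV arrays agreed to within 0.07, and the difference was 3.28 (9.73-fold, adjusted p = 5.49e-07). Tapbp stood at 5.41, 5.29 and 5.07 in wt and at 3.51, 3.45 and 3.54 in pTV, a difference of 1.76 (3.38-fold, adjusted p = 4.80e-07), and its dimmer probe gave 1.51.

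Among the immunoproteasome subunits, Psmb8 fell out of the measurable range without p65. It read 0.37, -0.17 and -0.96 in wt at 3 h and was not well above background on any pTV array. This makes it at least 22.7-fold higher in wt by the brighter probe and at least 14.2-fold by the dimmer. The adjusted p-values, 1.32e-06 and 2.26e-06, come from the limma fit to the dim pTV signals and do not belong to these bounds. Psmb9 was at -0.60, -0.89 and -1.30 in wt and at -4.30, -5.16 and -4.12 in pTV, where the array at -5.16 was not well above background. The difference of 3.60 (12.1-fold, adjusted p = 8.78e-06) was far larger than the spread of either group. Psmb10 gave the tightest groups, with 6.88, 6.75 and 6.63 in wt against 4.33, 4.37 and 4.40 in pTV (difference 2.39, 5.22-fold, adjusted p = 1.22e-08).

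The constitutive catalytic subunits that these 3 replace did not show this. Psmb6, the counterpart of Psmb9, differed between wt and pTV by -0.07 (95% confidence interval -0.63 to 0.49), Psmb7, the counterpart of Psmb10, by -0.02 (-0.21 to 0.18), and Psmb5, the counterpart of Psmb8, by -0.01 (-0.23 to 0.21). None of the 3 was called in any of the 7 comparisons.

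**Figure D2:**
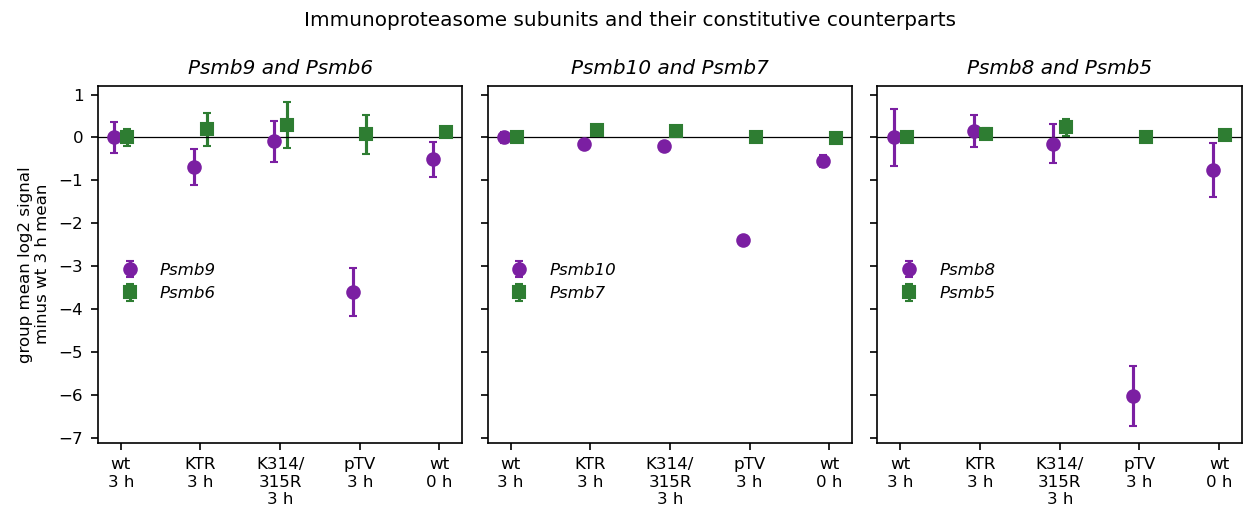
Group mean log2 signal minus the wt 3 h mean of the same gene (y axis) in the 5 groups (x axis), for each immunoproteasome subunit (circles) and its constitutive counterpart (squares), with bars of 1 SD over arrays. In pTV Psmb10 lies 2.39 and Psmb9 3.60 below wt at 3 h, Psmb8 was not well above background there, and the counterparts lie near 0 in every group.

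Other genes of the pathway were counted from fixed lists. Of 14 tested class I heavy chain genes at other loci, 11 were higher in wt than in pTV, with a list median of 1.74, led by H2-Q1 at 2.42, H2-Q7 at 1.84 and H2-T23 at 1.84, and the caution on paralogs holds for these too. Of 9 genes listed for peptide loading and trimming, 3 were called. These were Tapbpl, a relative of tapasin, at 1.98, Erap1, the trimming peptidase of the endoplasmic reticulum, at 1.47, and Ube1l at 2.86. Ube1l activates the ubiquitin-like protein Isg15 and is counted here only because the list held it. The list median was 0.18. General chaperones of the endoplasmic reticulum were not called: calreticulin at 0.50 (adjusted p = 0.00267) was under the fold limit, and calnexin was at 0.18 (adjusted p = 0.328). Of 6 proteasome activator and assembly genes, only Psme1, a subunit of the PA28 activator, was called, at 1.16. Regulators of class I genes were called in 6 of 13 tested cases, led by Irf7 at 3.20, Irf1 at 2.59 and Irf9 at 2.09, all transcription factors of the interferon response. For MHC class II presentation, 2 of 5 tested genes were called, the invariant chain Cd74 at 3.19 and H2-DMb1, which edits class II peptides, at 1.75, while the heterodimer genes H2-Aa and H2-Ab1 and the class II master regulator Ciita were not above background often enough to be tested. No gene on any of these lists was called lower. Among the cell type markers, 2 moved with these genes: Cd83, listed as dendritic, was 3.81 higher and Pdgfrb, a fibroblast receptor, 1.99 higher in wt than in pTV. The epithelial keratin Krt18 was 2.53 lower (log2 fold change -2.53). The part of these markers in the result was not tested. Some of these sizes rest on dim spots. Krt18 was well above background on 1 of 3 wt arrays at 3 h, and Cd83, Irf7 and H2-DMb1 on 2 of 3 pTV arrays.

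These genes were also above pTV in both mutants, and the pTV arrays in these comparisons are the same ones as above. KTR gave 9 of 9 genes called higher (background 3.32% of probes, median of the 9 genes 2.24, or 1.93 with Tap1 and Psmb8 at their bounds), and K314/315R gave 8 of 9 (background 4.18%, median 2.22, or 2.20 with the bounds). The exception was B2m in K314/315R, at 5.78 and 5.17, which was 1.89-fold above pTV (adjusted p = 0.0193) and so just under the fold limit. Psmb8 was at least 25.2-fold higher in KTR and at least 20.6-fold higher in K314/315R, close to the bound of 22.7-fold in wt. For Tap1 the bounds were 2.23-fold in KTR and 4.28-fold in K314/315R. In KTR, B2m read 5.86, 5.41 and 5.61, 2.11-fold above pTV (adjusted p = 0.00639); this call was lost without KTR replicate 1 (0.96) or without pTV replicate 3 (0.97). The dimmer Tapbp probe gave only 0.50 in KTR over pTV (adjusted p = 0.189), with KTR arrays at 0.54, -0.35 and -0.62 against -0.79 to -0.49 in pTV, while the brighter probe gave 1.59. In KTR and K314/315R over pTV, the cell type markers Cd83 (3.76 and 3.27) and Pdgfrb (2.05 and 1.92) were called higher. Krt18 (-1.85 and -2.59) was called lower, but was not well above background on any array of either mutant. The part of these markers in the result was not tested.

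**Figure D3:**
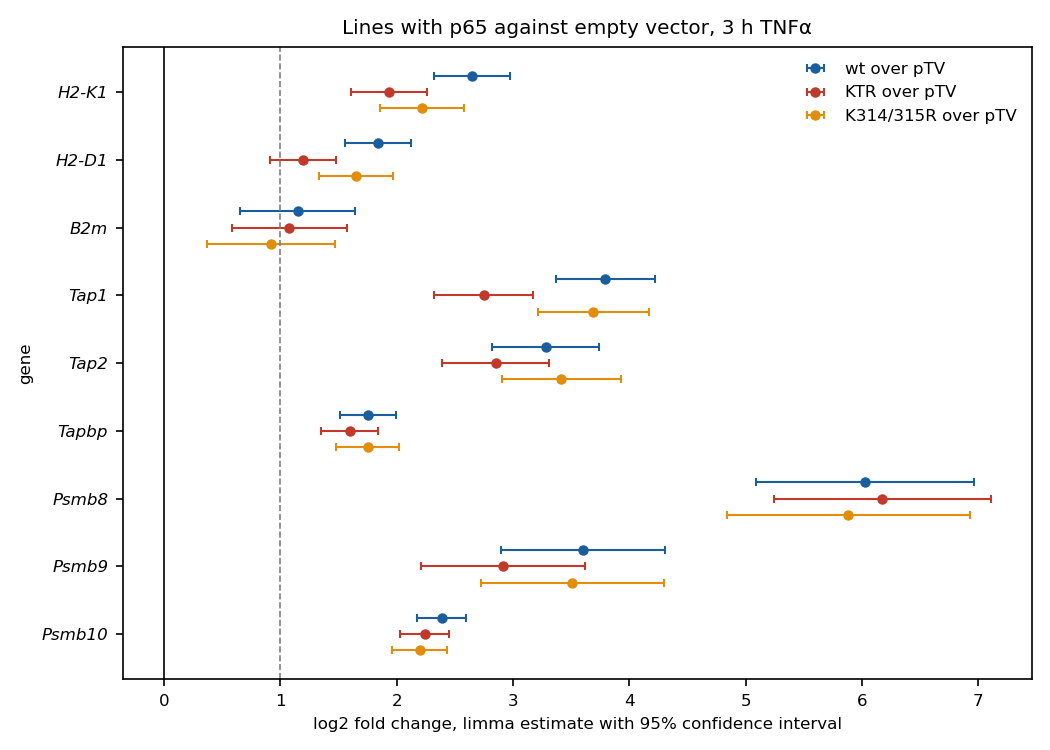
Log2 fold change over pTV at 3 h (x axis) for the 9 genes (y axis) in wt, KTR and K314/315R, as limma estimates with 95% confidence intervals; the dashed line marks the fold limit of 2. All estimates lie to the right of 0, the lowest being 0.92 for B2m in K314/315R, and the values of Tap1 and Psmb8 rest on pTV spots that were not well above background, so that only their bounds hold.

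In cells with wild type p65, the differences between 3 h of TNFα and no TNFα were small. At 3 h against 0 h, 0 of 9 genes were called at a fold over 1.8 (limma, background 1.12% of probes higher), and 4 of 9 had an unadjusted p under 0.05, higher, as did 8.12% of all probes. All 9 means were higher at 3 h, with a median log2 fold change of 0.49 against -0.04 over all tested probes. With the fold limit removed, Psmb10 alone passed, among 2.71% of all probes. It read 6.88, 6.75 and 6.63 at 3 h and 6.35, 6.20 and 6.07 at 0 h, so that the groups did not overlap, and it was 1.46-fold higher at 3 h (adjusted p = 0.00690). For the other 8 genes the 3 h and 0 h arrays overlapped, while 13.5% of all probes stood wholly above.

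Arrays of the same slide gave a closer view, since replicate numbers marked the slide for these 2 groups. The 3 h array was above the 0 h array of its slide on all 3 slides for 9 of 9 genes, beside 26.1% of all probes. For Psmb8 the differences were 0.75, 0.82 and 0.70, the largest of the 9, and for H2-D1 they were 0.03, 0.17 and 0.08. With the replicate number as a block, 5 of 9 genes had an adjusted p under 0.05 with no fold limit (5.3% of all probes), namely H2-K1 (0.0369), Tap1 (0.0355), Tap2 (0.0243), Psmb8 (0.00815) and Psmb10 (0.00227), and none passed the fold of 1.8. The other probes of a gene did not always follow: H2-K1 gave -0.09 and 0.29 from its dimmer probes, and B2m -0.06 and 0.42. With the block, the adjusted p was 0.785 and 0.122 for the dimmer H2-K1 probes. It was 0.263 for the dimmer Psmb8 probe, which gave 0.62. Among the pathway lists, only the regulators Irf1 (0.87) and Relb (0.92), a transcription factor of interferon responses and an NF-κB subunit, were called higher at 3 h. Of the cell type markers, Cd83 was called higher too (1.78, 3.44-fold, adjusted p = 0.00195), and its part in the result was not tested.

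The same genes were already high before TNFα. Every wt array at 0 h stood above every pTV array at 3 h for 9 of 9 genes, beside 22.4% of all probes, although the pTV cells had been given TNFα. Among the genes measured in pTV, the difference of means between wt at 0 h and pTV at 3 h ran from 1.04 for B2m to 3.09 for Psmb9. Psmb9 was well above background on only 2 of the pTV arrays. For H2-K1, at 4.59, 4.30 and 4.14 at 0 h, the difference was 2.31. Tap1 was at least 3.26-fold and Psmb8 at least 13.5-fold higher in wt at 0 h. This pair of groups differs in p65 and in TNFα at once and was not tested.

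KTR was compared with wt at 3 h to ask what the loss of the 3 lysines does, although the lines also differ by infected pool. None of the 9 genes was called (limma, background 0.14% of probes lower), 3 of 9 had an unadjusted p under 0.05, all lower, beside 4.2% of all probes, and 1 of these was past the fold limit too. The means of 8 genes were lower in KTR, with a median log2 fold change of -0.43 against 0.06 over all tested probes. All KTR arrays lay below all wt arrays for H2-K1, H2-D1 and Tap1, 3 of 9 genes, while 5.06% of all probes behaved in this way.

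Tap1 had the largest difference: -3.62, -3.34 and -3.86 in KTR against -2.51, -2.32 and -2.86 in wt, with KTR replicate 3 not well above background. It was at 0.484 of the wt level (log2 fold change -1.05, 95% confidence interval -1.47 to -0.62, adjusted p = 0.0603). Over the alternatives run, the log2 fold change ranged from -1.19 to -0.49. Within slides the differences were -1.11, -1.03 and -1.0, and blocking on the replicate number the adjusted p was 0.00474, which made Tap1 the only 1 of the 9 genes called lower, among 0.28% of all probes. H2-K1 read 4.11, 4.04 and 3.77 in KTR, at 0.61 of wt (-0.71, adjusted p = 0.0865), with differences of -0.73, -0.74 and -0.67 within slides and an adjusted p of 0.00551 with the block, short of the fold limit. The dimmest H2-K1 probe gave -0.91 (adjusted p = 0.0502, and 0.00450 with the block, then past the fold limit) and the middle probe -0.51. H2-D1 was at 3.32, 3.40 and 3.35 in KTR, all below the lowest wt array at 3.75 (-0.65, adjusted p = 0.0744, and 0.0112 with the block).

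**Figure D4:**
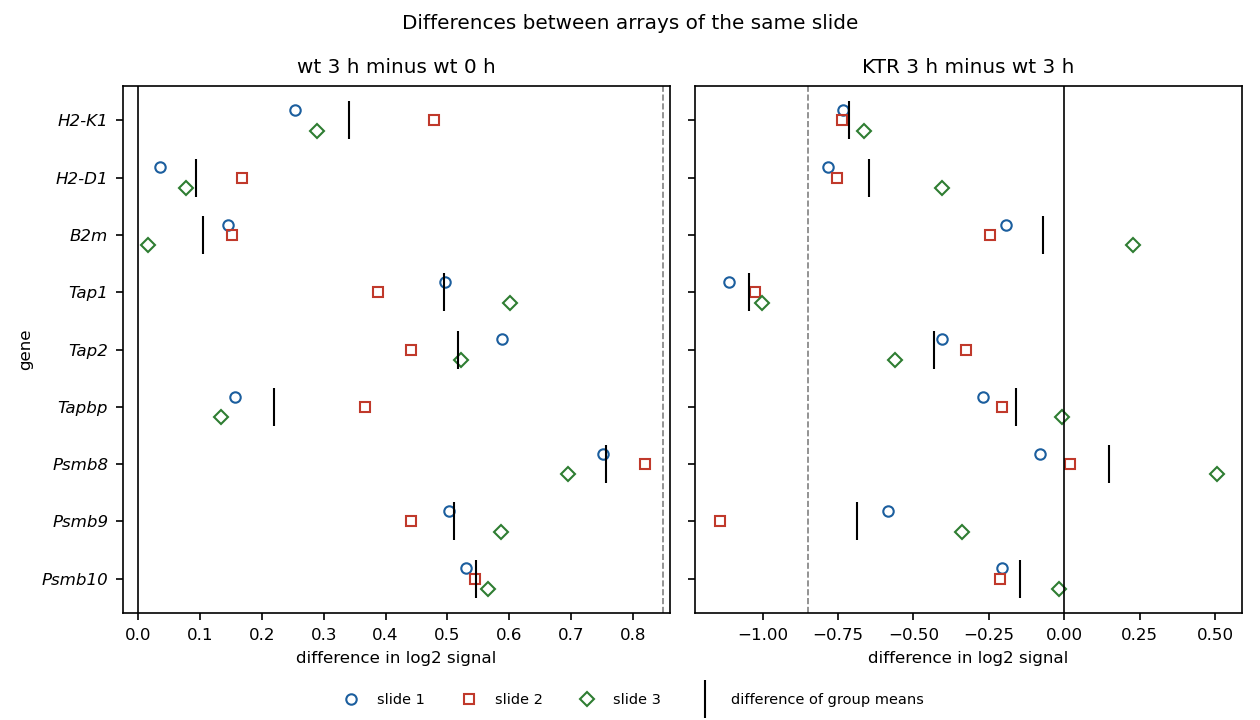
Differences in log2 signal between arrays of the same slide (x axis) for the 9 genes (y axis), wt 3 h minus wt 0 h on the left and KTR minus wt at 3 h on the right, each panel with its own x range; symbols are slides 1 to 3, black bars are differences of group means and dashed lines mark the fold limit of 1.8. On the left all differences are above 0, and on the right Tap1 lies between -1.11 and -1.0 while B2m and Psmb8 fall on both sides of 0.

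By their brightest probes, the KTR and wt arrays of the other 6 genes overlapped. Within slides KTR was the lower on all 3 slides for 7 of 9 genes, all but B2m and Psmb8, beside 13.6% of all probes. Psmb9 was at -1.18, -2.03 and -1.64 in KTR and gave -0.69, with -0.58, -1.14 and -0.34 within slides (adjusted p = 0.558). Tap2 gave -0.43, with -0.41, -0.33 and -0.56 within slides (adjusted p = 0.578). B2m (-0.07, 95% confidence interval -0.56 to 0.42) and Psmb8 (0.15, -0.79 to 1.08) had means close to wt by these probes. The B2m probe printed in several copies gave -0.34 (-0.66 to -0.02, adjusted p = 0.515), and the dimmest B2m probe gave -0.11. Both of these were lower in KTR on all 3 slides, so B2m stands apart by its brightest probe only. Psmb10, with tighter arrays, gave -0.15 (-0.36 to 0.06). The probes of Tapbp disagreed: the brighter gave -0.16 (-0.40 to 0.08), with KTR at 5.14, 5.08 and 5.07, and the dimmer gave -1.01 (-1.52 to -0.50, adjusted p = 0.139), with KTR replicates 2 and 3 at -0.35 and -0.62 but replicate 1 at 0.54. KTR replicates 2 and 3 also had the most outlier spots of all arrays (212 and 326, against 1 to 108 on the others), and the part of this in the result was not tested. Of the pathway lists, the 14 tested class I heavy chain genes at other loci had a median of -0.52 with 0 called. The only called gene was H2-DMb1 (-1.25, adjusted p = 0.00567), which was well above background on 1 of 3 KTR arrays.

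By the median of the 9 genes, K314/315R lay closer to wt than KTR did. Among the brightest probes, those of B2m (-0.23) and Psmb10 (-0.19) lay further from wt than in KTR (-0.07 and -0.15). Psmb8 was about as far in both, and the other genes were closer in K314/315R. None of the 9 genes was called (limma, background 1.03% of probes lower), 1 of 9 had an unadjusted p under 0.05, lower, as did 9.71% of all probes, and the median log2 fold change was -0.14 against 0.02 over all tested probes. Both K314/315R arrays were below all wt arrays for H2-K1 and Psmb10, 2 of 9 genes, beside 17.2% of all probes. H2-K1, at 4.32 and 4.18, gave -0.43 (95% confidence interval -0.79 to -0.07, adjusted p = 0.203), but its dimmer probes gave 0.02 and -0.28. With the replicate number as a block H2-K1 gave -0.52 (adjusted p = 0.0148), under the fold limit. Its dimmer probes then gave 0.06 and -0.38 (adjusted p = 0.861 and 0.0752). The K314/315R arrays shared no slide with wt, so this block does not match slides. H2-D1 gave -0.19 (-0.51 to 0.12). Tap1 stood at -2.60 and -2.72, within the wt range, with a difference of -0.10 (-0.58 to 0.38). Tap2, at -0.31 and -0.33, gave 0.13 (-0.38 to 0.65) and Tapbp gave -0.00 (-0.28 to 0.27). Psmb8 (-0.14, -1.19 to 0.90) and Psmb9 (-0.09, -0.88 to 0.70) had wide intervals, which do not show that they were equal.

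Set against each other, the 2 mutants differ by the exchange of lysine 310, and also by the infected pool, the slide and the software version. These cannot be told apart here. Only Tap1 was called, lower in KTR (background 0.492% of probes lower): the 3 KTR arrays, at -3.86 to -3.34, were all below the K314/315R arrays, and the log2 fold change was -0.94 (95% confidence interval -1.42 to -0.47, adjusted p = 0.0312). With the replicate number as a block it was -0.82, under the fold limit (adjusted p = 0.00746), and the call was lost in 4 of 5 fits that left out 1 array, those without K314/315R replicate 1 (adjusted p = 0.113) or 2 (0.121) and those without KTR replicate 1 (0.0513) or 3 (0.0710). Over the alternatives run, the Tap1 difference ranged from -1.12 to -0.37. The dimmer Tapbp probe was also lower in KTR (-1.25, adjusted p = 0.0210), and the brighter gave -0.16. For 5 of 9 genes, H2-K1, H2-D1, Tap1, Tap2 and Tapbp, all KTR arrays were below both K314/315R arrays, beside 12.2% of all probes. The immunoproteasome subunits and B2m overlapped, with differences from -0.60 for Psmb9 to 0.29 for Psmb8. With the block, Psmb8 gave 0.57 by its brighter probe (adjusted p = 0.0393) and -0.06 by the dimmer (0.928). H2-D1 gave -0.38 with the block (adjusted p = 0.0390). All of these were under the fold limit.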

How the data were processed

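Total RNA was measured on Agilent whole mouse genome arrays, 1 colour, 14 arrays. The deposited files hold per-spot intensity values that the authors extracted with Agilent Feature Extraction (9.1 per the labels; per the file headers 9.1.3.1 on both K314/315R arrays and 9.1.1.1 on the others, so that software version, slide and line cannot be told apart for K314/315R), background-corrected by that software (processed signal). No genome build is named for the probes. The authors' value table holds the same intensity values times 1 factor per array, 0.837 to 1.20, with at least 99.6% of probes within 1% of that factor.

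Flagged outlier spots were left out, spots of a probe averaged, values divided by the 75th percentile of their array and log2 taken. All 14 arrays entered 1 limma 3.58.1 fit (lmFit, eBayes; R 4.3.3), two-sided, with p-values adjusted by Benjamini-Hochberg over the tested probes. Fold limits were 2 over pTV and 1.8 otherwise, at an adjusted p under 0.05. The study describes each line as a pool and its replicate RNA as isolated at different days. It reports no separate infections of a line, so p-values measure the spread between these samples and not between infected pools. "At least" folds set the brighter group's mean against, per array, the higher of the probe's signal and the lowest signal well above background.

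Replicate numbers paired the arrays of slides 1 to 3: deviations from group means correlated at 0.308 to 0.624 in all 18 same-numbered pairs and at -0.516 to 0.113 in the other 36. For K314/315R, on slide 4, the 8 same-numbered pairs gave -0.0906 to 0.416 and the other 16 gave -0.42 to 0.418. These ranges overlap, so the replicate number is not shown to pair the K314/315R arrays. The fit was tested on simulated data. Alternatives covered normalization, background correction, the dim probe filter, outlier spots, block, slide, samples fitted, probe choice and each array left out. Genes and lists were chosen with earlier results of these data known, and some members also stand in gene lists the study drew from these arrays, so their direction in KTR is no independent evidence. The study lists H2-K1, H2-D1 and Tapbp as lower in KTR than in wt, whereas none of the 9 genes was called lower in the main fit here. All 9 genes are described, and from the other lists at most 3 called genes per comparison by size. The number of arrays limits the precision.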

Additional observations from a re-analysis of the deposited data

How the results depend on the processing

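The counts of the 9 genes called kept within 1.5 times of their value under the alternatives run, with these exceptions. With normexp background correction, 5 genes were called higher in wt and 5 in K314/315R over pTV (9 and 8 as reported), and 0 lower in KTR against K314/315R. The calls lost in wt over pTV were Tap1 (1.23, adjusted p = 0.874), Psmb8 (2.57, 0.0540), Psmb9 (1.84, 0.0670) and B2m (0.99, 0.154). On wt replicate 1 that correction moved the 75th percentile from 1227 to 2583, and on pTV replicate 2 from 1080 to 1609; with the 10 and 5 spots below their local background on these arrays (and such spots elsewhere) left out, an alternative chosen after seeing the data, the percentiles were 1263 and 1118 and the KTR against K314/315R count was 0 and that of KTR over pTV 8 (9 as reported), with Tap1 at 0.94, under the fold limit. Restricting to probes well above background on all arrays removed Tap1, Psmb8 and Psmb9, which left 5 called in K314/315R over pTV and 0 in KTR against K314/315R. The latter count, 1 as reported, was also 0 with only the arrays of these groups, with the replicate block and with slide as a random block, 2 with the dimmest probe per gene, and 0 to 1 when arrays were left out in turn. KTR against wt, 0 as reported, gave 1 lower gene (Tap1) with no filter on dim probes, outlier spots kept, the replicate block, slide as a random block, or unadjusted p. wt 3 h over 0 h gave 1 with no fold limit, chosen after seeing the data. The replicate block changed no other count by over 1.5 times.

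Signs turned only for differences that were not called. Under normexp these were B2m (0.051), Psmb10 (0.12) and Tapbp (0.16) in K314/315R over wt, B2m (0.19), Psmb10 (0.23) and Tapbp (0.16) in KTR over wt, B2m (-0.21), H2-D1 (-0.16) and Tapbp (-0.12) in wt 3 h over 0 h, and Tapbp (0.0041) in KTR over K314/315R. The shift of all tested probes under normexp was 0.11 in wt 3 h over 0 h and -0.10 in KTR over wt. With the dimmest probe, Psmb8 gave 0.19 and Tapbp 0.24 in K314/315R over wt, and Psmb8 -0.18 in KTR over K314/315R. With the authors' table, Psmb10 gave -0.037 in KTR over K314/315R and Tapbp 0.030 in K314/315R over wt. Tap1 gave 0.030 under quantile normalization and Tap2 -0.012 with the replicate block, both in K314/315R over wt. With arrays left out in turn, signs turned in K314/315R over wt for B2m (-0.53 to 0.074), Psmb8 (-0.50 to 0.18), Psmb9 (-0.42 to 0.24), Tap1 (-0.25 to 0.019), Tap2 (-0.032 to 0.28) and Tapbp (-0.10 to 0.071), in KTR over K314/315R for B2m (-0.15 to 0.46), Psmb10 (-0.0082 to 0.093) and Psmb8 (-0.028 to 0.61), in KTR over wt for B2m (-0.23 to 0.11) and Psmb8 (-0.20 to 0.46), and in wt 3 h over 0 h for B2m (-0.075 to 0.26) and H2-D1 (-0.023 to 0.22). The cause was not tested.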

Other observations

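The 5 genes outside the list whose group means were nearest to the mean of the 9 members, each set relative to its own wt 3 h mean over the 5 groups, were Penk1, Phactr1, Parp9, Ube1l and 1110007F12Rik, with root mean square differences of 0.02, 0.11, 0.12, 0.12 and 0.14 in log2 units. In pTV this mean holds values of Tap1 and Psmb8 that were not well above background; with both at their bounds it was -2.60 in place of -2.94, and the 5 nearest genes were Gvin1, Phactr1, Parp9, Map3k8 and Ddx58, of which 2 were shared and Penk1 was not one. The mean profile of the members was -0.42 in KTR, -0.14 in K314/315R, -2.94 in pTV and -0.40 in wt at 0 h. Penk1, which encodes the precursor of the enkephalins, read -0.37, -0.15, -2.94 and -0.39 in these groups, and Parp9, an ADP-ribosyltransferase partner, -0.49, -0.25, -2.71 and -0.46. These are likenesses of 5 group means, chosen as the nearest of all tested probes, and carry no test.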
